A study of Mus musculus with 30 samples.

Results

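Orally tolerised mice were compared with primed mice in CD4+ T cells and, apart from them, in CD11c+ cells, in which dendritic cells are enriched, and the question was which of the 2 cell fractions tells tolerance from priming. For each gene the tolerised minus primed difference in CD4+ T cells was set against the same difference in CD11c+ cells, and the gap between the 2 differences was tested. All genes with 1 symbol in the platform annotation were members, 17097 in number, and 10794 of them were tested, those that exceeded the median of an array on 3 or more of a cell type's 15 arrays. The 4 groups compared held 3 arrays each, 12 of the 30 arrays of the series. They were CD4+ T cells of tolerised mice, CD4+ T cells of primed mice, CD11c+ cells of tolerised mice and CD11c+ cells of primed mice. Every mouse was a DO11.10 RAG2-/- animal on the BALB/c background, 8 to 10 weeks old, in which all T cells carry 1 transgenic receptor, specific for an ovalbumin (OVA) peptide, and the mouse's own T and B cell receptors are not made. Tolerised mice had drunk OVA in their water, which the labels give as 50 mg/ml in one field and per kg of body weight in another. Primed mice had received 100 micrograms of OVA, together with complete Freund's adjuvant, by subcutaneous injection, and 10 days passed between immunisation and cell isolation. The CD4+ fraction was prepared from mesenteric lymph nodes in tolerised mice and from axillary lymph nodes in primed mice, so in this cell type tissue and treatment cannot be told apart. CD11c+ cells came from pooled spleen and lymph nodes in both groups. The other 18 arrays, of unimmunised mice and of primed mice that also got control IgG or abatacept at 10 mg/kg, served for the estimate of the spread and for ranking levels between cell types.

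Feeding a protein leads to oral tolerance, a state in which T cells that know the protein fail to respond to it later, whereas the same protein in Freund's adjuvant primes them for help and inflammation. Dendritic cells carry antigen to lymph nodes and decide by their costimulatory molecules and cytokines which course a T cell takes. Tolerised T cells can become anergic, a state known for factors that repeated receptor signalling induces, such as Egr2 and the Nr4a family, and for inhibitory receptors. In the nodes of the gut, dendritic cells make retinoic acid from vitamin A, which induces the homing receptors CCR9 and integrin alpha 4 beta 7 on T cells.

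All levels are on the log2 scale, and an average is shown as mean ± SD over the 3 arrays of its group. Within groups, correlations between arrays ran from 0.983 to 0.995 across probe sets, and array medians lay between 4.456 and 4.544. Whether replicates come from separate mice is not stated in the labels, and p-values therefore reflect the spread of these samples alone, which may be technical. The fractions held the markers of their labels. Cd3e, a chain of the T cell receptor complex, lay at 11.47 to 11.61 in tolerised and 11.50 to 11.56 in primed CD4+ T cells, and at 7.68 to 8.78 in tolerised and 7.41 to 8.16 in primed CD11c+ cells. Itgax, which encodes CD11c, lay at 10.12 to 10.28 in tolerised and 10.22 to 10.29 in primed CD11c+ cells. In CD4+ T cells Itgax was at 4.45 to 6.13 in tolerised arrays and 3.47 to 4.05 in primed arrays, a rise of 1.55 that passed the test. In bulk samples of this kind, fewer cells of a type and less RNA per cell cannot be told apart.

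Sex-linked transcripts moved with treatment in CD11c+ cells. Eif2s3y, a Y-linked translation factor gene, averaged 2.62 ± 0.22 in tolerised and 8.58 ± 0.05 in primed CD11c+ cells, while Xist, the transcript that silences an X chromosome, averaged 11.11 ± 0.20 in tolerised and 4.5 ± 0.36 in primed CD11c+ cells. In CD4+ T cells Eif2s3y was high in both groups, at 8.89 ± 0.06 in tolerised and 8.62 ± 0.18 in primed cells, and Xist averaged 6.17 ± 0.96 in tolerised and 10.15 ± 0.80 in primed cells. Sex is not among the labels used here. In CD11c+ cells the sex-linked signal splits the arrays exactly as treatment does, so the part of either in a CD11c+ difference, and through it in the difference between cell types, cannot be told apart. With the Eif2s3y level as a covariate, the median standard error of the CD11c+ difference was 0.45 log2, against 0.13 without it, and that of the difference between cell types 0.48 against 0.18. Of the 12 arrays, the third replicate of tolerised CD11c+ cells alone held the salivary transcripts Amy1 and Bpifa2, at 8.08 and 8.07.

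The tolerised and primed groups differed by more genes and by larger differences in CD4+ T cells than in CD11c+ cells. The CD4+ groups also differed in the nodes sampled, mesenteric against axillary, and the CD11c+ groups in sex-linked signal. The parts of these in the counts, and in the difference between cell types, cannot be told apart from that of treatment. At a Benjamini-Hochberg adjusted p under 0.05, 1737 of the 10794 genes (16.1%) differed between tolerised and primed CD4+ T cells, 769 higher (7.12%) and 968 lower (8.97%) in tolerised cells. That balance turned under quantile normalization again, with 868 higher and 789 lower, within each cell type apart, with 860 and 782, and without tolerised CD4+ replicate 3, with 885 and 802. In CD11c+ cells 351 genes (3.25%) differed, 168 higher (1.56%) and 183 lower (1.7%) in tolerised cells. At 2-fold or more the counts were 388 genes (3.59%) in CD4+ T cells and 93 (0.862%) in the CD11c+ fraction. The difference between the cell types itself passed its test for 1216 genes (11.3%), above 0 for 534 (4.95%) and below 0 for 682 (6.32%). A value above 0 means that the gene was higher in tolerised than in primed CD4+ T cells by more than in CD11c+ cells. Over all genes the standard deviation of the tolerised minus primed difference was 0.43 log2 in CD4+ T cells and 0.29 in the CD11c+ fraction. Tolerised and primed arrays did not overlap for 30.1% of genes in CD4+ T cells and 22.6% in the CD11c+ fraction. The spread between replicates was alike in both, with a median SD of 0.149 in tolerised and 0.117 in primed CD4+ T cells, and of 0.145 in tolerised and 0.101 in primed CD11c+ cells.

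The count in CD11c+ cells hung on single arrays more than the other counts. It was 223 without tolerised replicate 1, 212 without tolerised replicate 3, 164 without primed replicate 1 and 122 without primed replicate 2 of the CD11c+ cells. It was 493 without tolerised replicate 2 of the CD11c+ cells, and 724 with array weights, which gave 1589 in CD4+ T cells. With the Eif2s3y level as a covariate, 1698 genes were called in CD4+ T cells, 7 in CD11c+ cells and 14 in the difference between cell types. With Eif2s3y and Xist together, an alternative chosen after seeing the data, the counts were 419, 3 and 7. Xist separated the CD4+ groups as well, with a difference of -3.99 (adjusted p = 0.00011), so sex-linked signal touches the CD4+ side too. Within groups the Eif2s3y level varied most among CD11c+ arrays of mice given control IgG, at 8.76, 5.92 and 8.20, so the Eif2s3y covariate rests largely on those 3 arrays.

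**Figure D1:**
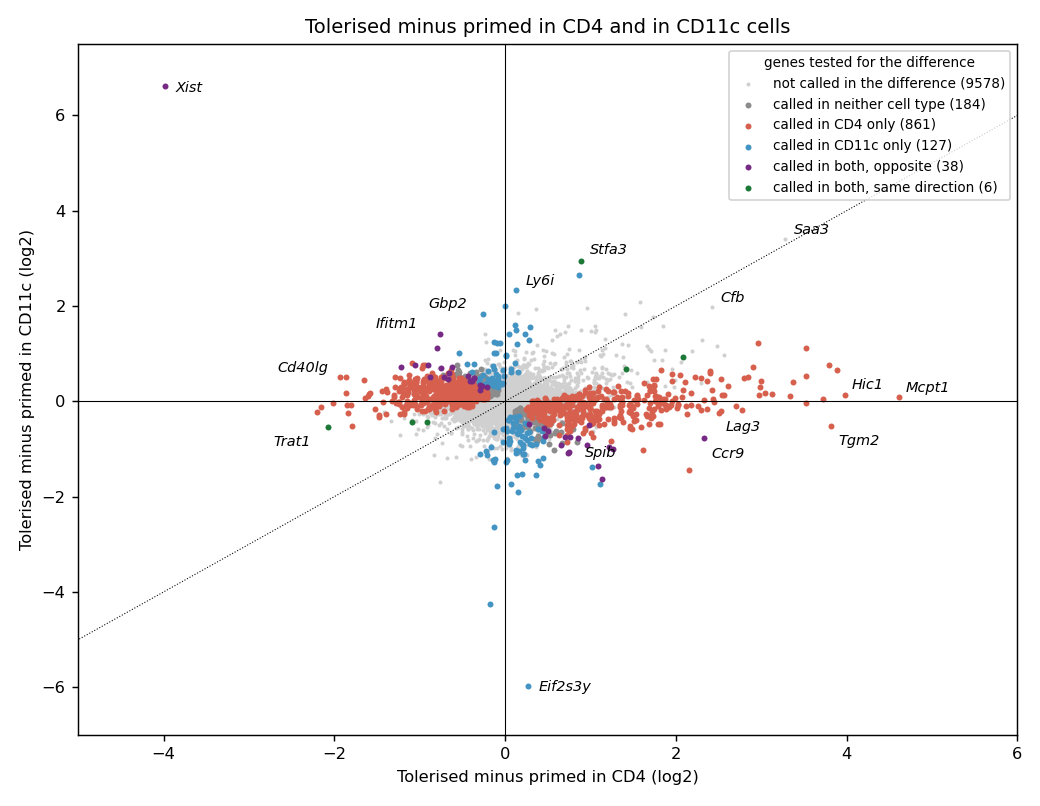
Each point is 1 of the 10794 genes tested, with its tolerised minus primed difference in CD4+ T cells on the horizontal axis and in CD11c+ cells on the vertical axis, both in log2 units, and the dotted line marks equal differences. Colours show where a gene with a called difference between cell types was itself called. Most coloured points lie along the horizontal axis, 861 genes called in CD4+ T cells and not in CD11c+ cells against 127 called the other way round.

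Of the 1216 genes, 861 were called in CD4+ T cells and not in CD11c+ cells, 127 in CD11c+ cells and not in CD4+ T cells, 38 in both in opposite directions, 6 in both in the same direction, and 184 in neither cell type alone. Tolerised CD4+ T cells were the higher group for 373 and the lower for 488 of the 861 genes. Tolerised CD11c+ cells were the higher group for 52 and the lower for 75 of the 127. A further 49 genes were called in both cell types in the same direction with no call for a difference between them, 31 higher and 18 lower in tolerised cells. The 93 genes called in both cell types made up 5.35% of the CD4+ calls and 26.5% of the CD11c+ calls. Across genes, which are not independent replicates, the 2 differences had a Pearson correlation of 0.07 and a Spearman correlation of 0.03.

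Genes above 0 in the difference between cell types were mostly genes of the CD11c+ fraction. Levels were ranked in the 12 arrays of mice given control IgG or abatacept, which take no part in the comparison of tolerised with primed mice. Of the 534 genes above 0, 63.5% were at least 2-fold higher in CD11c+ than in CD4+ arrays, against 16.8% of all genes tested, and 8.8% of the 682 genes below 0 were. Of the genes higher in tolerised CD4+ T cells 52.7% were CD11c-high in this sense, and of the genes lower in tolerised CD11c+ cells 66.7% were. Restricted to genes at least as high in CD4+ as in CD11c+ arrays, 483 differences between cell types were called, 102 above 0 and 381 below 0. The same restriction left 737 called genes in CD4+ T cells and 92 in the CD11c+ fraction. The part of cell composition in these calls was not tested.

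**Figure D2:**
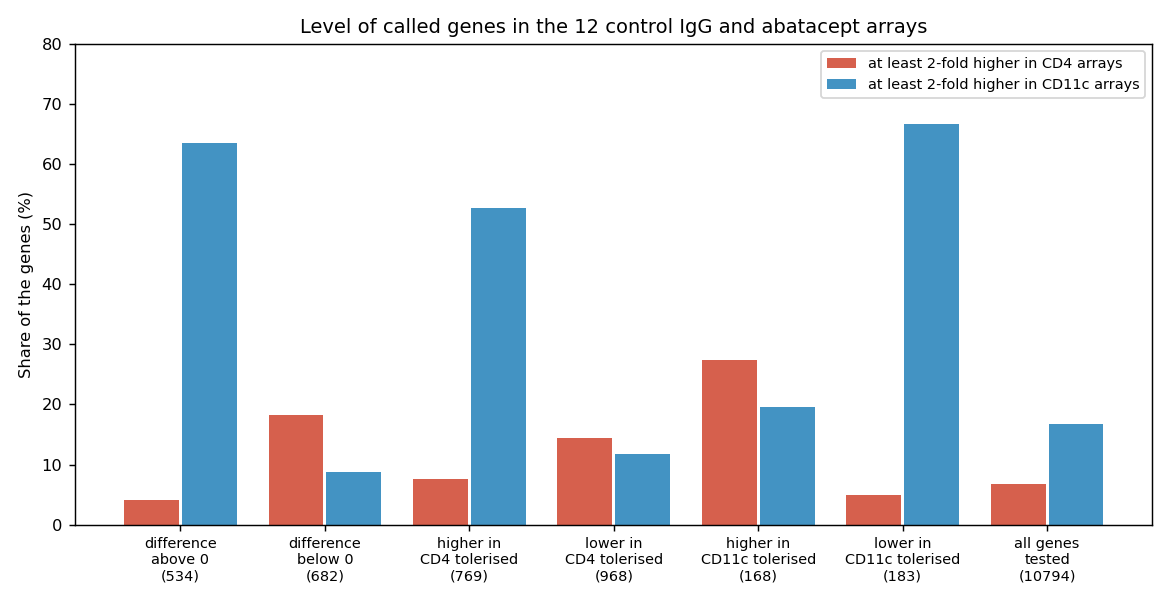
Bars give the share (%) of each set of called genes that was at least 2-fold higher in CD4+ (red) or in CD11c+ (blue) arrays of mice given control IgG or abatacept, with the number of genes in brackets. The share higher in CD11c+ arrays was 63.5% for genes with a difference above 0 and 8.8% for genes with a difference below 0, against 16.8% of all genes tested.

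Several factors that receptor signalling induces in T cells were higher in tolerised CD4+ T cells and were not called in CD11c+ cells. Egr2, a zinc finger factor linked to anergy, read 10.66, 10.74 and 10.46 in tolerised and 9.49, 9.02 and 9.52 in primed CD4+ T cells. In CD11c+ cells it read 8.99, 8.39 and 8.75 in tolerised and 9.12, 9.02 and 9.07 in primed arrays. The groups did not overlap in either cell type, and they ran in opposite directions. Egr2 was 2.42-fold higher in tolerised CD4+ T cells (adjusted p = 1.4e-06), its log2 difference in CD11c+ cells was -0.36 (adjusted p = 0.20), and the difference between cell types was 1.64 ± 0.21 (SE, adjusted p = 1.6e-05). Nr4a3, an orphan nuclear receptor induced by the same signal, averaged 8.31 ± 0.34 in tolerised and 6.52 ± 0.13 in primed CD4+ T cells, against 7.04 ± 0.08 and 7.51 ± 0.13 in tolerised and primed CD11c+ cells (difference between cell types 2.27 ± 0.27 SE, adjusted p = 6.8e-06). Its relative Nr4a1 rose 3.13-fold in tolerised CD4+ T cells, with a difference between cell types of 1.92 (adjusted p = 2.1e-05). Egr2 and Nr4a3 are not genes of T cells alone, and on primed arrays Nr4a3 was higher in CD11c+ cells. Markers of other cell types, given with their lists below, rose on the same tolerised CD4+ arrays. Their part in these values and in those of the receptors that follow was not tested. Of 19 genes in a list of anergy and receptor-induced factors, 11 were higher and 2 lower in tolerised CD4+ T cells, 0 passed in either direction in CD11c+ cells, and 8 differed between cell types above 0 and 1 below. The median of the list was 0.41 in CD4+ T cells and 0.04 in the CD11c+ fraction, against -0.04 and 0.01 over all genes tested. Beside this and every other list count stand the shares called over all genes tested. They were 7.12% higher and 8.97% lower in tolerised CD4+ T cells, and 1.56% higher and 1.7% lower in tolerised CD11c+ cells. For the difference between cell types they were 4.95% above and 6.32% below 0. In CD11c+ cells a count of 0 in a short list is near these shares.

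Inhibitory and costimulatory receptors moved in both directions. Lag3, an inhibitory receptor that binds MHC class II, read 6.57, 6.98 and 5.94 in tolerised and 4.26, 4.16 and 3.56 in primed CD4+ T cells. In CD11c+ cells it read 6.02, 6.19 and 6.34 in tolerised and 6.40, 6.61 and 6.31 in primed arrays, which overlap. The rise in tolerised CD4+ T cells was 5.66-fold (adjusted p = 9.1e-09), and the difference between cell types was 2.75 ± 0.29 (SE, adjusted p = 1.3e-06). All primed CD4+ values of Lag3 lay below the array medians, so this fold is not exact. Lag3 is also a gene of plasmacytoid dendritic cells. Nt5e, the ectoenzyme CD73 that makes adenosine, averaged 5.96 ± 0.17 in tolerised and 4.25 ± 0.32 in primed CD4+ T cells. The primed mean lay below the array medians, and the difference between cell types was 1.5 (adjusted p = 0.00093). The X-linked Rnf128, the anergy ubiquitin ligase GRAIL, rose 3.36-fold in tolerised CD4+ T cells and differed by 1.40 (adjusted p = 0.00050). The costimulatory receptor Tnfrsf9 (4-1BB) rose 4.32-fold and differed by 1.7 (adjusted p = 0.00089).

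The X-linked Cd40lg, the ligand with which T cells activate dendritic cells and B cells, moved the other way. It read 6.30, 6.93 and 6.65 in tolerised and 8.54, 8.6 and 8.35 in primed CD4+ T cells, and all tolerised arrays lay below all primed arrays. In CD11c+ cells it lay below the array medians, at 3.65 ± 0.45 in tolerised and 3.15 ± 0.36 in primed arrays. The fall in tolerised CD4+ T cells was 3.66-fold (adjusted p = 1.6e-05), and the difference between cell types was -2.38 ± 0.37 (SE, adjusted p = 0.00015). Ccr4, a chemokine receptor of skin-homing T cells, averaged 5.82 ± 0.42 in tolerised and 7.83 ± 0.16 in primed CD4+ T cells and differed by -1.98 (adjusted p = 2.7e-05). The IL-2 receptor subunit gene Il2ra passed in neither cell type but differed between them by -1.15 (adjusted p = 0.010), at 8.6 ± 0.21 in tolerised and 9.13 ± 0.39 in primed CD4+ T cells and 6.23 ± 0.13 in tolerised and 5.61 ± 0.28 in primed CD11c+ cells.

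For some T cell genes a difference between cell types was not shown or hung on 1 array. The inhibitory receptor Ctla4 rose 2.27-fold in tolerised CD4+ T cells (adjusted p = 0.0030), at 10.15 ± 0.20 against 8.97 ± 0.41 in primed cells, and the difference between cell types was 0.72, with a 95% interval of -0.07 to 1.5 (adjusted p = 0.26). Without tolerised CD11c+ replicate 1, at 5.43 beside 4.30 and 4.23, the Ctla4 difference was 1.11 and passed (adjusted p = 0.034). Icos, a receptor for helper function, was lower in tolerised CD4+ T cells by a log2 difference of -0.67 (adjusted p = 0.0036), and its difference between cell types of -0.65 had an adjusted p of 0.056. The X-linked Foxp3, the factor of regulatory T cells, averaged 8.92 ± 0.21 in tolerised and 9.02 ± 1.03 in primed CD4+ T cells. Its difference between cell types was -0.21 (95% interval -1.07 to 0.65). Primed replicate 2 stood apart for Foxp3, at 7.84 beside 9.71 and 9.51, and without it the difference was -0.80 and passed (adjusted p = 0.047). Among 17 activation genes, 7 were higher and 3 lower in tolerised CD4+ T cells, 1 was higher in tolerised CD11c+ cells, and the difference between cell types passed for 4 above 0 and 2 below.

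Some genes of effector programmes also separated tolerised from primed CD4+ T cells. Eomes, a T-box factor of cytotoxic and memory cells, read 8.54, 8.77 and 8.02 in tolerised and 6.35, 6.04 and 6.41 in primed CD4+ T cells. In CD11c+ cells its groups overlapped, at 7.90 ± 0.17 in tolerised and 7.98 ± 0.10 in primed arrays. The difference between cell types was 2.26 ± 0.30 (SE, adjusted p = 2.8e-05). Cxcr5, the receptor that guides follicular helper T cells into follicles, averaged 7.49 ± 0.33 in tolerised and 5.07 ± 0.77 in primed CD4+ T cells and differed between cell types by 2.19 (adjusted p = 0.0042). Of 18 Th1 genes 7 were higher and 2 lower in tolerised CD4+ T cells, 2 were higher in tolerised CD11c+ cells, and 4 differed between cell types above 0 and 1 below. Of 11 follicular helper genes 4 were higher and 2 lower in tolerised CD4+ T cells and 1 was lower in tolerised CD11c+ cells, and 3 differed between cell types, all above 0. Markers of other cell types rose on the same tolerised CD4+ arrays, as given with the myeloid and mast cell lists, and their part in these T cell results was not tested.

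Gut homing and retinoic acid genes differed between cell types in 8 of 10 cases, 4 above 0 and 4 below. Hic1, a transcription repressor induced by retinoic acid, had the largest value of this list in CD4+ T cells. It read 7.77, 7.93 and 7.77 in tolerised and 3.92, 3.77 and 3.85 in primed CD4+ T cells, against 5.12, 4.47 and 5.57 in tolerised and 4.86, 4.76 and 5.10 in primed CD11c+ cells. The CD4+ groups lay far apart while the CD11c+ groups overlapped, and the difference between cell types was 3.84 ± 0.33 (SE, adjusted p = 7.9e-08). Because the primed CD4+ level lay below the array median, the 15.8-fold rise is not exact. Itga4, the alpha 4 integrin chain, rose 3.68-fold, at 9.64 ± 0.16 in tolerised and 7.76 ± 0.10 in primed CD4+ T cells, with a difference between cell types of 1.96 (adjusted p = 7.9e-08). Dhrs3, a retinal reductase induced by retinoic acid, rose 5.76-fold, from a primed level also below the array median, and differed by 2.73 (adjusted p = 7.9e-08). Itgb7, the beta 7 chain with which Itga4 pairs for gut homing, was lower in tolerised CD4+ T cells at 10.06 ± 0.10 against 10.63 ± 0.01, and differed by -0.66 (adjusted p = 0.0024). The retinoic acid receptor gene Rara was also lower there, with a difference between cell types of -0.65 (adjusted p = 0.0036). Aldh1a2, the enzyme with which dendritic cells make retinoic acid, read 6.24, 4.91 and 3.80 in tolerised and 3.19, 2.99 and 2.82 in primed CD4+ T cells, and its difference between cell types of 1.68 did not pass (adjusted p = 0.11), but without tolerised CD4+ replicate 3 it was 2.28 and passed (adjusted p = 0.015). In CD11c+ cells Aldh1a2 averaged 6.95 ± 0.39 in tolerised and 6.65 ± 0.44 in primed arrays. The nodes sampled from CD4+ T cells differed between the groups, mesenteric in tolerised and axillary in primed mice, and the part of the tissue in these homing genes cannot be told apart from that of the treatment.

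**Figure D3:**
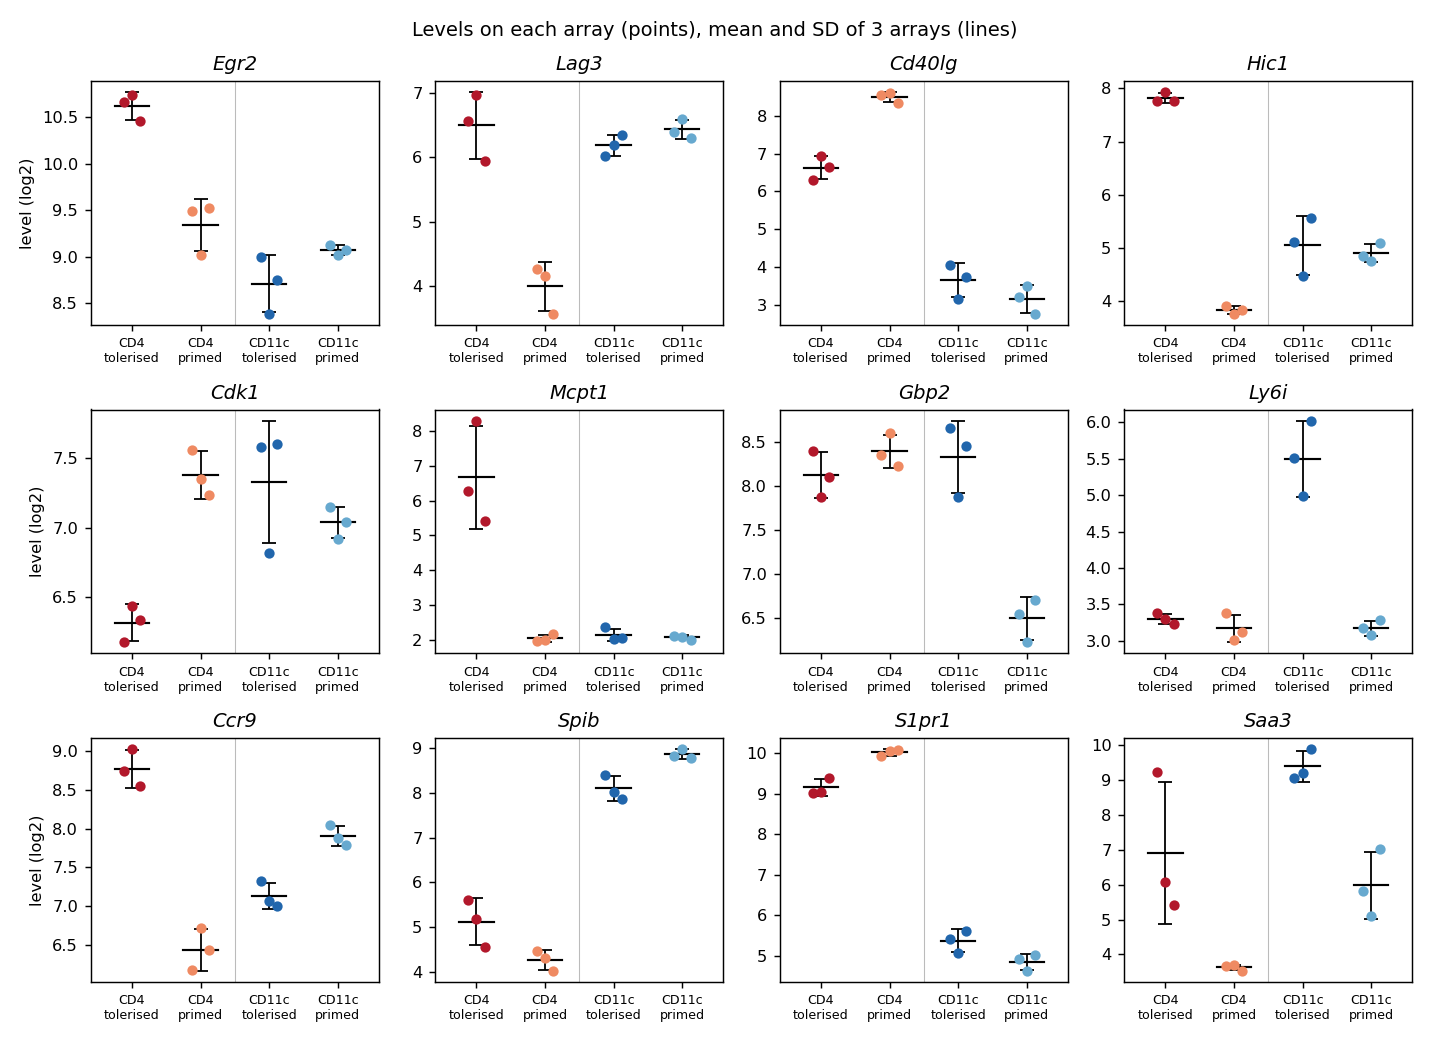
Each panel shows 1 gene on the 12 arrays, with log2 level on the vertical axis, points for arrays and lines for the mean and SD of 3 arrays, in the order tolerised and primed CD4+ T cells, then tolerised and primed CD11c+ cells. Egr2, Lag3 and Hic1 were higher and Cd40lg and Cdk1 lower in tolerised CD4+ T cells, Gbp2 and Ly6i were higher in tolerised CD11c+ cells, Ccr9, Spib and S1pr1 moved in opposite directions in the 2 cell types, and Saa3 was higher in both.

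Most cell cycle genes were lower in tolerised CD4+ T cells and differed between the cell types. Of 31 genes of replication and mitosis, 22 were lower in tolerised CD4+ T cells and 0 higher, 0 passed in either direction in CD11c+ cells, and 24 differed between cell types, all below 0. The median was -0.87 in CD4+ T cells and 0.29 in the CD11c+ fraction, and all 31 values lay below 0 in CD4+ T cells and above 0 in CD11c+ cells. Cdk1, the kinase that drives entry into mitosis, read 6.18, 6.44 and 6.34 in tolerised and 7.56, 7.35 and 7.24 in primed CD4+ T cells. In CD11c+ cells it read 7.58, 6.82 and 7.6 in tolerised and 7.15, 6.92 and 7.04 in primed arrays. The CD4+ groups did not overlap, and in CD11c+ cells 2 tolerised arrays lay above and 1 below the primed arrays. The difference between cell types of Cdk1 was -1.36 ± 0.25 (SE, adjusted p = 0.00093). The S-phase and mitotic cyclin Ccna2 differed by -1.56 (adjusted p = 0.00011), the spindle kinase Aurka by -1.81 (adjusted p = 0.00078) and the topoisomerase Top2a by -1.29 (adjusted p = 0.0033). The list mean was lowest on tolerised replicate 2 among tolerised CD11c+ arrays, at 7.12 beside 7.77 and 7.70, and the primed CD11c+ arrays lay at 7.29, 7.16 and 7.24.

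The promoters of cell cycle genes are known for CCAAT boxes, which the factor NF-Y binds, so the upstream sequence of the members named is shown with each CCAAT, on either strand, in capitals. The windows are the 120 bases before the gene start, 5′ to 3′ along the gene, from RefSeq on GRCm38.p6. Cdk1 lies on the minus strand at chr10:69352913-69353032, Top2a on the minus strand at chr11:99024190-99024309 and Aurka on the minus strand at chr2:172370571-172370690.
Cdk1: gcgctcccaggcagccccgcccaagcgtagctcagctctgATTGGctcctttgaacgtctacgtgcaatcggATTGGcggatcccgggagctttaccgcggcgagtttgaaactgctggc
Top2a: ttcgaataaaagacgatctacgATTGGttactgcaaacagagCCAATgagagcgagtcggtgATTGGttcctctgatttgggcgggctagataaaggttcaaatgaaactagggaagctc
Aurka: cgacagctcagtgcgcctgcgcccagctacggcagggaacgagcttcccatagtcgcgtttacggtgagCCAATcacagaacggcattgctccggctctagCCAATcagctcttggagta
The letters CCAAT, searched on both strands in the 250 bases before the start, occurred in 20 of the 25 cell cycle genes with a window (80%), in 3532 of 8762 tested genes (40.3%) and in 37.5% of all genes in the table. Among genes lower in tolerised CD4+ T cells 378 of 811 held it (46.6%). The letters TTTGAA, the core of the cell cycle homology region, occurred in 8 of the 25 genes (32.0%) and in 13% of tested genes. A match is a description of these letters and not a shown binding site.

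**Figure D4:**
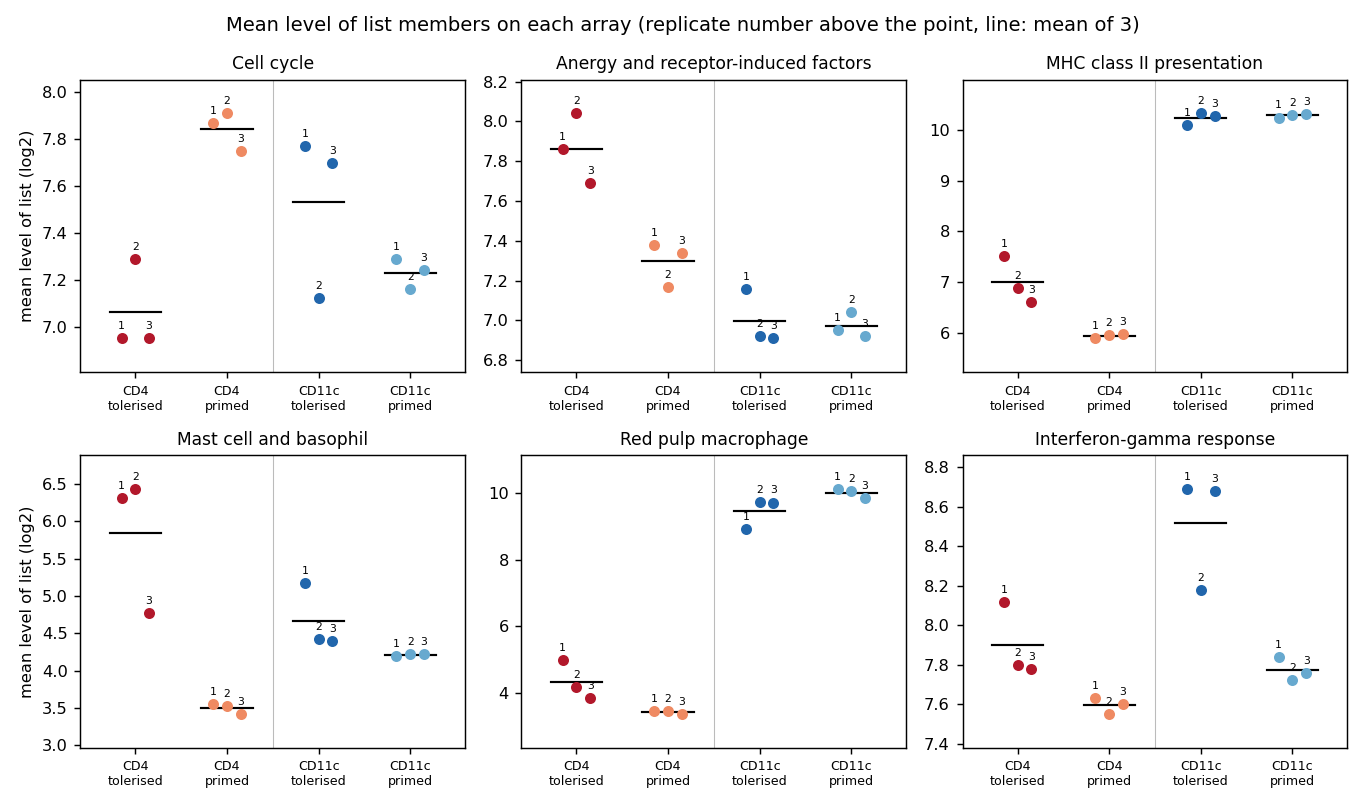
Points give the mean log2 level of a list's members on each array, with the replicate number above the point and a line for the mean of 3 arrays, in the order tolerised and primed CD4+ T cells, then tolerised and primed CD11c+ cells. The cell cycle mean was lower on all 3 tolerised than on all 3 primed CD4+ arrays, the MHC class II, mast cell and red pulp macrophage means were higher on tolerised CD4+ arrays, and the interferon-gamma mean was higher on all 3 tolerised than on all 3 primed CD11c+ arrays.

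Beside sex-linked genes, Hic1 and Ccr9, the largest positive differences between cell types included many transcripts of mast, myeloid and cytotoxic cells. Mcpt1, a protease of mucosal mast cells, read 6.28, 8.29 and 5.41 in tolerised CD4+ T cells and 1.99, 1.99 and 2.17 in primed CD4+ T cells. In CD11c+ cells it stayed between 2.02 and 2.37 in all 6 arrays, below the array medians. Its difference between cell types was 4.53 ± 0.52 (SE, adjusted p = 4.4e-06). Of 11 mast cell and basophil genes 9 were higher in tolerised CD4+ T cells, 0 passed in either direction in CD11c+ cells and 6 differed between cell types, with medians of 2.57 in CD4+ T cells and 0.56 in the CD11c+ fraction. Of the 12 members on the array, 10 lay below the array median on every primed CD4+ array and 8 on every primed CD11c+ array. For tolerised CD4+ arrays that number was 0. Members may thus have entered the test through the tolerised CD4+ arrays, and the filter may have set part of the count. The mast cell carboxypeptidase Cpa3 differed by 3.03 (adjusted p = 0.00035) and the alpha chain of the IgE receptor, Fcer1a, by 2.97 (adjusted p = 0.0033). Fcer1a read 6.51, 6.58 and 3.76 in tolerised and 2.30, 2.21 and 2.25 in primed CD4+ T cells, so the third tolerised array lay far below the other 2.

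Myeloid and cytotoxic genes also had large positive differences. Tgm2, a transglutaminase that macrophages express, read 8.89, 7.67 and 7.19 in tolerised and 3.83, 4.03 and 4.45 in primed CD4+ T cells, against 9.10 ± 0.27 in tolerised and 9.61 ± 0.23 in primed CD11c+ cells. Its difference between cell types was 4.33 ± 0.40 (SE, adjusted p = 2.0e-07). The calprotectin subunits of neutrophils and monocytes differed by 3.68 for S100a9 (adjusted p = 0.00031) and 3.56 for S100a8 (adjusted p = 0.00050). Gzma, a granzyme of cytotoxic T and natural killer cells, read 11.66, 11.15 and 10.76 in tolerised and 7.43, 7.73 and 6.74 in primed CD4+ T cells and differed by 3.24 (adjusted p = 1.0e-07). The lysozyme gene Lyz2 differed by 2.68 (adjusted p = 0.00084). Replicate 1 was the highest tolerised CD4+ array for Tgm2, Gzma and Lyz2, and replicate 2 for S100a8 and S100a9. Of 12 neutrophil genes 2 were higher in tolerised CD4+ T cells and 2 differed between cell types, and of 6 natural killer genes 3 were higher and 1 differed, with 0 called in CD11c+ cells in either list. Of 14 monocyte and macrophage genes 6 were higher and 1 lower in tolerised CD4+ T cells, 0 passed in either direction in CD11c+ cells, and 4 differed between cell types, all above 0. The summed level of that list, on the linear scale, ran from 974 to 3100 on tolerised and 497 to 736 on primed CD4+ arrays.

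Antigen presentation genes formed part of the same contrast. H2-Eb1, the beta chain of the class II molecule I-E, read 9.28, 8.09 and 7.08 in tolerised and 5.85, 6.25 and 6.53 in primed CD4+ T cells, while in CD11c+ cells it lay at 12.11 ± 0.07 in tolerised and 12.19 ± 0.01 in primed arrays. It differed between cell types by 2.01 ± 0.44 (SE, adjusted p = 0.0039), and Cd74, the invariant chain that escorts class II molecules, by 1.86 (adjusted p = 0.0023). Of 12 class II presentation genes 9 were higher in tolerised CD4+ T cells and 0 passed in CD11c+ cells, with medians of 0.83 and -0.05, and 7 differed between cell types above 0. Itgax itself differed by 1.60 (adjusted p = 0.0022). The sum over 12 class II members on tolerised CD4+ arrays, 2840 to 4740, was above the 1950 to 2250 of primed CD4+ arrays and below the 21700 to 24100 of tolerised CD11c+ arrays.

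Red pulp macrophage genes differed between cell types throughout the list, while few calls were made in CD11c+ cells alone. All 9 members tested differed between cell types above 0, 6 were higher in tolerised CD4+ T cells and 1 was lower in tolerised CD11c+ cells, with medians of 0.75 and -0.51. C1qa, a chain of the complement starter C1q, read 5.97, 4.70 and 3.83 in tolerised and 3.37, 3.15 and 3.20 in primed CD4+ T cells, and 8.88, 9.61 and 9.60 in tolerised and 9.99, 10.04 and 9.71 in primed CD11c+ cells. Neither pair of groups overlapped, the CD11c+ difference alone did not pass (adjusted p = 0.37), and the difference between cell types was 2.15 ± 0.43 (SE, adjusted p = 0.0018). The iron exporter Slc40a1 differed by 1.63 (adjusted p = 9.9e-05). Summed levels of the list were 142 to 376 on tolerised and 100 to 108 on primed CD4+ arrays, and 5390 to 9080 on tolerised and 9860 to 11500 on primed CD11c+ arrays. Of 10 plasmacytoid dendritic cell genes 3 were higher in tolerised CD4+ T cells and 4 lower in tolerised CD11c+ cells, and 5 differed between cell types, all above 0. B cell genes stayed low, with sums of 117 to 136 on tolerised and 106 to 109 on primed CD4+ arrays and 210 to 266 on tolerised and 327 to 365 on primed CD11c+ arrays.

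The largest negative differences called in CD4+ T cells and not in CD11c+ cells, beside Cd40lg, belonged to genes of varied roles. S100a6, a calcium binding protein of activated cells, averaged 7.52 ± 0.53 in tolerised and 9.16 ± 0.27 in primed CD4+ T cells, against 10.29 ± 0.13 and 9.83 ± 0.11 in tolerised and primed CD11c+ cells, a difference between cell types of -2.10 (adjusted p = 6.7e-05). The monocarboxylate transporter family gene Slc16a5 fell 4.47-fold and differed by -2.03 (adjusted p = 9.1e-05). The LIM domain gene Pdlim4 also differed by -2.03 (adjusted p = 0.00012). The unnamed transcript 1500009L16Rik differed by -2.44 (adjusted p = 7.0e-05). All tolerised CD4+ arrays lay below all primed CD4+ arrays for each of these 4 genes.

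In CD11c+ cells the largest calls were sex-linked. Of 7 tested Y-linked genes 5 were called in CD11c+ cells, and 6 differed between cell types. Besides Eif2s3y, with 6.24, these included the histone demethylase genes Kdm5d, with 4.08, and Uty, with 2.49, and the multicopy genes Ssty2 with 3.6, Orly with 2.84 and Ssty1 with 2.40. All 6 were lower in tolerised CD11c+ cells on every array. Ssty2 did not pass in CD11c+ cells and was the 1 Y-linked gene called in CD4+ T cells. Ssty1, Ssty2 and Orly have near-identical copies, so which copy was measured is uncertain. On the X chromosome 51 of 317 tested genes were called in CD4+ T cells (16.1%), 18 in CD11c+ cells (5.68%) and 46 in the difference (14.5%), against 16.1%, 3.25% and 11.3% of all genes. The T cell genes Cd40lg, Rnf128 and Foxp3 lie on this chromosome. The part of sex-linked signal in their values cannot be told apart from that of treatment.

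Among autosomal genes of CD11c+ cells, 7 of 14 interferon-gamma response genes and 1 of 16 type I interferon genes were called higher in tolerised mice. Of all genes tested, 1.56% were. Gbp2, a guanylate-binding GTPase of defence against microbes, read 8.65, 7.87 and 8.46 in tolerised and 6.54, 6.22 and 6.70 in primed CD11c+ cells. In CD4+ T cells it read 8.40, 7.87 and 8.10 in tolerised and 8.34, 8.6 and 8.22 in primed arrays, which overlap. The CD11c+ groups did not overlap, the rise there was 3.58-fold (adjusted p = 0.00063), and the difference between cell types was -2.10 ± 0.41 (SE, adjusted p = 0.0014). Its relatives Gbp7 and Gbp3 rose 2.37-fold and 1.95-fold in tolerised CD11c+ cells and differed by -1.38 (adjusted p = 0.0025) and -0.95 (adjusted p = 0.022), the Gbp3 call being lost under 8 of 26 alternatives. The antiviral synthetase Oas3 averaged 7.80 ± 0.33 in tolerised and 8.34 ± 0.15 in primed CD4+ T cells, against 8.77 ± 0.53 and 7.76 ± 0.12 in tolerised and primed CD11c+ cells (difference -1.55, adjusted p = 0.0053).

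Of the interferon-gamma list 2 genes were also higher in tolerised CD4+ T cells, and 3 differed between cell types, all below 0. The medians were 0.10 in CD4+ T cells and 0.69 in the CD11c+ fraction, and all 14 values lay above 0 in CD11c+ cells. The other 4 called in CD11c+ cells were the chemokine Cxcl10 with 1.02, the GTPases Iigp1 with 1.49 and Igtp with 0.77, and the factor Irf1 with 0.41, and none of these 4 had a called difference between cell types. Their CD11c+ calls were lost under 18 of 27 alternatives for Irf1, 9 for Igtp, 8 for Cxcl10 and 7 for Iigp1. Iigp1 was called in CD4+ T cells as well, with 1.07 (adjusted p = 0.049). Of the type I interferon list 1 gene was higher in tolerised CD4+ T cells, and 4 differed between cell types below 0. Replicate 2 was the lowest tolerised CD11c+ array for the interferon-gamma list mean, at 8.18 beside 8.69 and 8.68, and the primed arrays lay at 7.84, 7.72 and 7.76.

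Interferon-stimulated genes are known for a response element in their promoters, which IRF and STAT factors bind. The upstream windows of 3 of the genes just described are shown, with the letters of that element, GAAA and GAAA spaced by any 2 bases, on either strand, in capitals. They are the 120 bases before the gene start from RefSeq on GRCm38.p6, 5′ to 3′ along the gene. Gbp2 lies on the plus strand at chr3:142620543-142620662, Gbp7 on the plus strand at chr3:142530216-142530335 and Oas3 on the minus strand at chr5:120777660-120777779.
Gbp2: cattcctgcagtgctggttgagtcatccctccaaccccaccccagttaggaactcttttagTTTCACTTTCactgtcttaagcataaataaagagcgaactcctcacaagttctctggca
Gbp7: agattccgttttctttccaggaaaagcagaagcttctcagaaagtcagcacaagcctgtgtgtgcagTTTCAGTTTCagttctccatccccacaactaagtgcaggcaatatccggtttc
Oas3: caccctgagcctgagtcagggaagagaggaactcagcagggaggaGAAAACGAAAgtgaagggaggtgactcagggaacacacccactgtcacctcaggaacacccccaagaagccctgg
In the 250 bases before the start these letters occurred in 13 of the 128 genes higher in tolerised CD11c+ cells that have a window (10.2%), in 3 of the 151 lower there (1.99%), and in 284 of 8762 tested genes (3.24%). Among genes higher in tolerised CD4+ T cells the share was 5.51%, and among those lower there 3.45%. The interferon-gamma list held them in 7 of 12 genes (58.3%) and the type I list in 5 of 11 (45.5%), against 3.46% of all genes in the table.

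Other genes called higher in tolerised CD11c+ cells and not called in CD4+ T cells were led by Ly6i, a surface protein of the Ly6 family that monocytes express. It read 5.51, 4.98 and 6.02 in tolerised and 3.17, 3.08 and 3.28 in primed CD11c+ cells, and 3.30 ± 0.07 in tolerised and 3.17 ± 0.19 in primed CD4+ T cells. The tolerised CD11c+ arrays were the only ones of the 12 above the array medians, and the difference between cell types was -2.20 ± 0.25 (SE, adjusted p = 4.2e-06). The matrix protein gene Spon1 rose 4.02-fold in tolerised CD11c+ cells and differed by -2.01 (adjusted p = 0.0048). The stefin family gene Stfa2l1 rose 6.31-fold there and differed by -1.80 (adjusted p = 0.0080). It also rose in tolerised CD4+ T cells, by less and without a call. The homeodomain gene Hopx rose 3.05-fold in tolerised CD11c+ cells and differed by -1.5 (adjusted p = 0.0019). Cd3g, a chain of the T cell receptor complex, was 2.01-fold higher in tolerised CD11c+ cells, at 8.19, 7.52 and 7.6 against 6.71, 6.88 and 6.69 in primed arrays, with a difference of -1.14 (adjusted p = 0.014). Over the whole T cell identity list, 1 of 13 members was higher and 1 lower in tolerised CD11c+ cells, and sums were 2430 to 3210 on tolerised and 2230 to 2520 on primed CD11c+ arrays.

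Genes called lower in tolerised CD11c+ cells and not called in CD4+ T cells included Col14a1, a collagen gene, and Cd209a, a lectin of monocyte-derived and conventional dendritic cells. Cd209a read 8.18, 8.09 and 7.31 in tolerised and 9.24, 9.20 and 8.96 in primed CD11c+ cells, and 4.33 ± 0.36 in tolerised and 4.46 ± 0.21 in primed CD4+ T cells. Its CD11c+ groups did not overlap, and the difference between cell types was 1.14 ± 0.28 (SE, adjusted p = 0.0095). Col14a1 fell 3.72-fold in tolerised CD11c+ cells and differed by 2.04 (adjusted p = 0.0054), with its first tolerised array at 4.77 below the 6.54 and 6.22 of the others. Of 13 dendritic cell identity genes 3 were higher in tolerised CD4+ T cells, 1 was lower in tolerised CD11c+ cells, and 4 differed between cell types, all above 0.

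Of the molecules by which dendritic cells instruct T cells, those named here were not called in CD11c+ cells. The costimulatory ligand Cd86 averaged 9.08 ± 0.14 in tolerised and 9.36 ± 0.11 in primed CD11c+ cells (log2 difference -0.28, adjusted p = 0.42), and Cd80 averaged 6.08 ± 0.07 in tolerised and 6.27 ± 0.37 in primed CD11c+ cells (adjusted p = 0.69). Their differences between cell types were 0.31 for Cd86 (95% interval -0.19 to 0.80) and 0.09 for Cd80 (95% interval -0.49 to 0.68). The maturation chemokines Ccl17 and Ccl22 had CD11c+ differences of 0.69 (adjusted p = 0.29) and 0.40 (adjusted p = 0.64), and differences between cell types of -0.34 and 0.64, neither called. Of 17 maturation genes 5 were higher in tolerised CD4+ T cells, 0 passed in either direction in CD11c+ cells, and 1 differed between cell types. With 3.25% of all genes called in CD11c+ cells, 0 of 17 is near the share of all genes. The CD11c+ arrays did not overlap for Cd86, nor for Cd83, at 8.83 ± 0.17 in tolerised and 9.34 ± 0.04 in primed cells (adjusted p = 0.20). Both were lower in tolerised cells, and 22.6% of all genes had CD11c+ arrays without overlap. Clu, the secreted chaperone clusterin, was higher in tolerised CD4+ T cells at 5.96 ± 1.0 against 4.47 ± 0.40, and averaged 8.20 ± 0.66 in tolerised and 8.78 ± 0.45 in primed CD11c+ cells, a difference between cell types of 2.07 (adjusted p = 0.031) whose groups overlapped in both cell types and whose call was lost under 9 and changed sign under 2 of 25 alternatives.

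The 38 genes called in both cell types in opposite directions (0.352% of those tested) are those for which the 2 fractions gave contrary answers. Of these, 17 were higher in tolerised CD4+ T cells and lower in tolerised CD11c+ cells, and 21 the other way round. Ccr9, the homing receptor for the small intestine and a marker of plasmacytoid dendritic cells, read 8.75, 9.03 and 8.55 in tolerised and 6.18, 6.73 and 6.43 in primed CD4+ T cells. In CD11c+ cells it read 7.32, 7.07 and 7.0 in tolerised and 8.05, 7.89 and 7.79 in primed arrays. No arrays overlapped in either cell type, with a 5.02-fold rise in tolerised CD4+ T cells (adjusted p = 5.2e-11), a 1.72-fold fall in tolerised CD11c+ cells (adjusted p = 0.0017) and a difference between cell types of 3.11 ± 0.20 (SE, adjusted p = 5.4e-10). Spib, a factor of B cells and plasmacytoid dendritic cells, averaged 5.12 ± 0.53 in tolerised and 4.27 ± 0.22 in primed CD4+ T cells, against 8.10 ± 0.28 and 8.86 ± 0.11 in tolerised and primed CD11c+ cells, a difference of 1.61 (adjusted p = 0.00017).

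Further genes of this direction fell into myeloid and other roles. Fcna, a ficolin of spleen and liver macrophages, averaged 4.34 ± 0.57 in tolerised and 3.08 ± 0.12 in primed CD4+ T cells, against 9.64 ± 0.61 and 10.65 ± 0.16 in tolerised and primed CD11c+ cells, and differed by 2.27 (adjusted p = 0.00021). Pparg, a lipid-sensing nuclear receptor with a role in macrophages and fat cells, differed by 1.83 (adjusted p = 7.0e-05). In CD4+ T cells Pparg lay below the array medians on all tolerised and primed arrays, and Fcna on all of them but tolerised replicate 1. The Notch target Hey1 differed by 1.87 (adjusted p = 0.0012), Lhfp by 2.44 (adjusted p = 0.00088), Tmem273 by 2.17 (adjusted p = 0.00020) and the X-linked Astx6 by 2.77 (adjusted p = 0.0012). Lhfp lay below the array medians on all tolerised and primed CD4+ arrays, and Astx6 on all tolerised CD11c+ arrays. Some genes of this direction lay higher in CD4+ T cells than in CD11c+ cells. Aff3 and Ttc3, chosen after their values were seen, averaged 9.15 and 8.74 over the 15 CD4+ arrays and 7.34 and 8.0 over the 15 CD11c+ arrays. Bach2, a repressor that keeps T cells resting, was another, at 9.67 ± 0.07 in tolerised and 9.21 ± 0.15 in primed CD4+ T cells. In CD11c+ cells Bach2 was at 6.88 ± 0.14 in tolerised and 7.45 ± 0.11 in primed arrays. It differed by 1.03 ± 0.14 (SE, adjusted p = 5.0e-05), with no overlap of arrays in either cell type.

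In the opposite direction, lower in tolerised CD4+ T cells and higher in tolerised CD11c+ cells, the leading autosomal gene was Ifitm1, an interferon-induced membrane protein that blocks virus entry. It read 7.73, 7.39 and 7.11 in tolerised and 8.14, 8.26 and 8.09 in primed CD4+ T cells, and 9.38, 8.76 and 9.48 in tolerised and 7.65, 7.96 and 7.76 in primed CD11c+ cells. The arrays did not overlap in either cell type, and the difference between cell types was -2.17 ± 0.30 (SE, adjusted p = 3.6e-05). The interferon-induced Ifit1bl1 differed by -1.93 (adjusted p = 0.00012), the mitotic kinase Nek2 by -1.95 (adjusted p = 3.6e-06), the myosin light chain Myl4 by -1.82 (adjusted p = 4.5e-06) and the actin-capping Capg by -1.67 (adjusted p = 0.00023). S1pr1, the receptor for leaving lymph nodes, averaged 9.16 ± 0.20 in tolerised and 10.03 ± 0.08 in primed CD4+ T cells, against 5.37 ± 0.28 and 4.85 ± 0.20 in tolerised and primed CD11c+ cells, and differed by -1.39 (adjusted p = 7.9e-05). The T cell factor Gata3, chosen after its values were seen, differed by -1.33 (adjusted p = 8.4e-05), with CD4+ and CD11c+ differences of -0.62 and 0.71. In CD11c+ cells Gata3 lay near or below the array medians, at 4.49 ± 0.22 in tolerised and 3.78 ± 0.14 in primed arrays. Xist, with -10.59, had the largest value of all and is described with the sex-linked genes.

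A few genes told tolerised from primed mice in the same direction in both fractions. For 6 of them the size also differed between cell types. Trat1, an adaptor of the T cell receptor, fell in tolerised mice by 4.22-fold in CD4+ T cells and 1.46-fold in CD11c+ cells (difference -1.53, adjusted p = 2.7e-05). Stfa3, a stefin of neutrophils, rose in tolerised mice by 1.85-fold in CD4+ T cells and 7.71-fold in CD11c+ cells (difference -2.06, adjusted p = 0.0022). The cytotoxic granule gene Nkg7 differed by 0.75 (adjusted p = 0.037), the sialyltransferase St6galnac3 by 1.16 (adjusted p = 0.028), the fatty acid ligase Acsl3 by -0.66 (adjusted p = 0.012) and Arhgap5, chosen after its values were seen, by -0.48 (adjusted p = 0.039). The call was lost under 15 of 26 alternatives for Arhgap5, 12 of 26 for Nkg7, 9 of 25 for St6galnac3 and 4 of 26 for Acsl3.

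For the 49 genes called in both in the same direction with no called difference, the test did not show unequal sizes. Saa3, an acute phase serum amyloid that macrophages and stromal cells make, read 9.24, 6.07 and 5.43 in tolerised and 3.67, 3.68 and 3.53 in primed CD4+ T cells, and 9.06, 9.21 and 9.89 in tolerised and 5.81, 5.11 and 7.03 in primed CD11c+ cells. Every tolerised array lay above every primed array of its cell type, with CD4+ replicate 1 far above the other 2. The rises were 3.28 log2 in CD4+ T cells (adjusted p = 0.00065) and 3.40 in CD11c+ cells (adjusted p = 0.0026), and their difference was -0.12, with a 95% interval of -1.96 to 1.72. Complement factor B, Cfb, rose by 2.42 in CD4+ T cells and 1.97 in the CD11c+ fraction, and complement C4b by 1.58 and 2.08. Ubd, a ubiquitin-like protein induced by interferon-gamma, rose by 1.73 and 1.77. The 4 shared falls named were for the palmitoyltransferase Zdhhc2, at -0.82 in CD4+ T cells and -0.76 in the CD11c+ fraction, the receptor gene Calcrl at -0.64 and -0.66, B230217O12Rik at -1.05 and -0.69, and Cd8b1, the CD8 beta chain, at -0.58 and -1.16. The CD11c+ call of B230217O12Rik was lost under 12 and changed sign under 2 of 26 alternatives, and the CD4+ call of Cd8b1 was lost under 5 of 27.

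**Figure D5:**
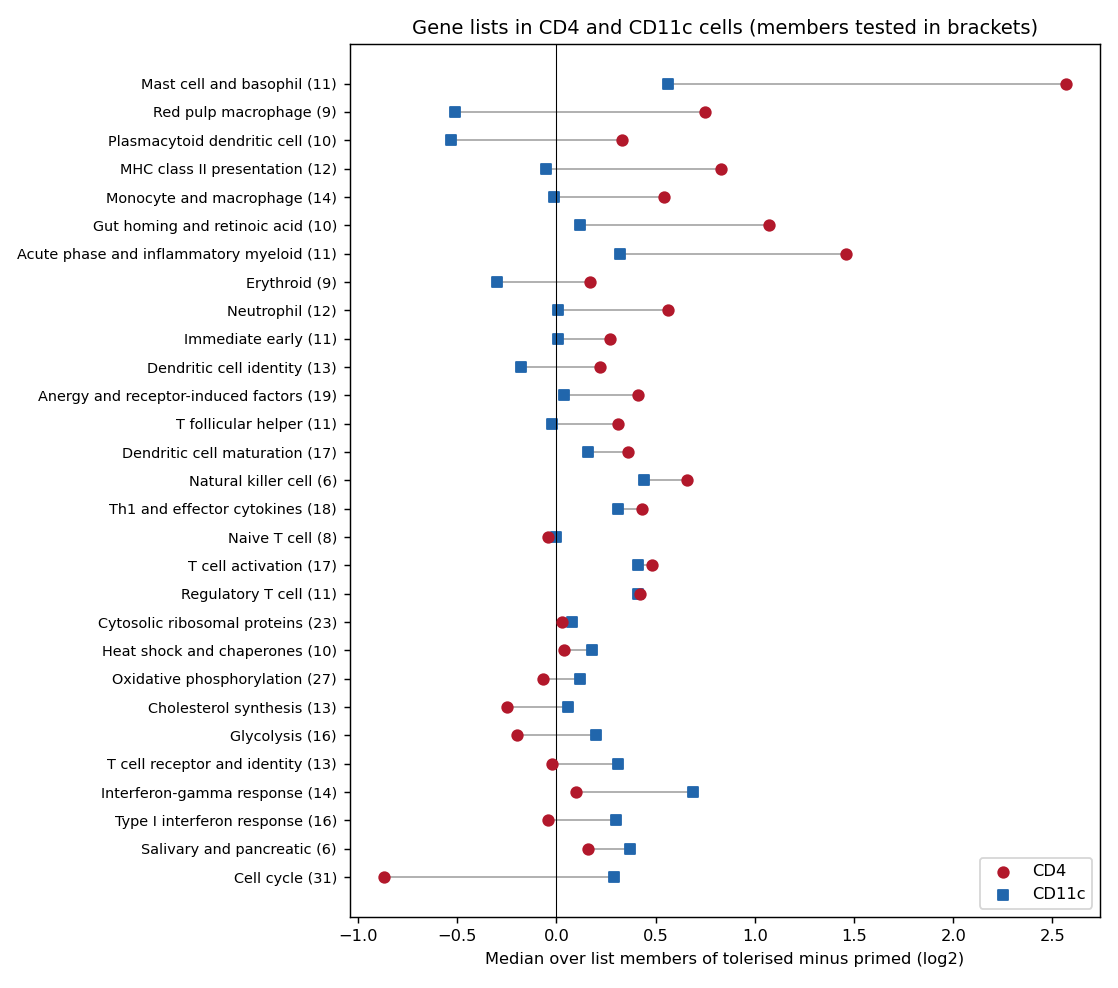
For each gene list with at least 6 tested members, the sex-linked list left out, the median tolerised minus primed difference over its members is shown in log2 units, as a red circle for CD4+ T cells and a blue square for CD11c+ cells, with the number of members tested in brackets. Lists are ordered by their median difference between cell types, and cell cycle, at -0.87 in CD4+ T cells and 0.29 in the CD11c+ fraction, stands at the lower end while mast cell and basophil genes, at 2.57 and 0.56, stand at the upper end.

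Ribosomal protein and heat shock lists had no calls, while respiratory chain and glycolysis lists held differences between cell types below 0. Of 23 cytosolic ribosomal protein genes and 10 heat shock genes, 0 passed in CD4+ T cells, in CD11c+ cells or in the difference between them, with the ribosomal medians at 0.03 in CD4+ T cells and 0.08 in the CD11c+ fraction. Of 27 respiratory chain genes 2 were lower in tolerised CD4+ T cells, 0 passed in CD11c+ cells and 5 differed between cell types below 0, with medians of -0.07 and 0.12. Of all genes tested, 6.32% differed below 0. In CD4+ T cells 4 of the 27 values lay above 0 and in CD11c+ cells 23, where 42.2% and 52.3% of all genes did. Of 16 glycolysis genes 5 were lower and 1 higher in tolerised CD4+ T cells and 3 were higher in tolerised CD11c+ cells, and 6 differed between cell types, all below 0, where 16.1%, 3.25% and 11.3% of all genes were called in the 3 comparisons. The glycolytic enzymes Aldoa and Pkm were small in size, with differences of -0.50 (adjusted p = 0.00063) and -0.59 (adjusted p = 0.0016), and were called in opposite directions in the 2 cell types.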

How the data were processed

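The values are log2 expression summaries of Affymetrix mouse arrays, deposited by the authors as 1 table of 30 arrays and made by RMA, per the submitters' processing notes, in a version not given in the sources used here. RMA corrects background, quantile-normalizes all arrays together and so sets every array to nearly the same distribution, which hides a shift of all genes. Of 45118 probe sets, 28898 had 1 gene symbol, 551 several and 15669 none in the platform annotation. A gene with several probe sets was represented by the one whose average over the 30 arrays was greatest. Genes below the array median, between 4.456 and 4.544 on the 12 arrays, were not shown to lie above background, so folds there are inexact, and the number of arrays limits the precision.

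A mean per group was fitted over the 30 arrays with limma 3.58.1 in R 4.3.3 (20 residual degrees of freedom), and contrasts were tested two-sided with Benjamini-Hochberg adjustment over the 10794 genes. Every adjusted p given is limma's. In data simulated for the difference between cell types over 10794 genes, each size of change was given to 50 genes. Log2 changes of 0.5, 1 and 2 were recovered in 38%, 72% and 98% of cases, and 3.4% of 147 calls were false. The noise was drawn independently for each gene and array, with no shared effect of array, tissue, sex or cell composition. The 3.4% is therefore not the share of false calls in the real data. Figures were drawn with matplotlib 3.10.9.

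Named genes were those with the highest and lowest values in each pattern of calls, whose arrays did not overlap in at least 1 cell type, at most 4 members of each list by smallest adjusted p, and a set of tolerance genes. Members, lists and rules were chosen with earlier results of these data known. Of 494 list members 62 were not in the table used. Alternatives were the arrays fitted, the filter, normalization, array weights, variance model, replicate block, probe set rule, sex-linked and salivary covariates and leaving out each array.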

Additional observations from a re-analysis of the deposited data

Results flagged for a closer look

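The tolerised minus primed difference in CD4+ T cells differed from that in CD11c+ cells by limma's test of the difference itself for 86 of the genes named. Their values follow on the log2 scale, and Aff3, Ttc3 and Cd83 are not counted among them. With 11.3% of tested genes called, such values were common.

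Among T cell receptor-induced and T cell genes, the values above 0 were Egr2 with 1.64, Nr4a3 with 2.27, Nr4a1 with 1.92, Lag3 with 2.75, Nt5e with 1.5, Rnf128 with 1.40, Tnfrsf9 with 1.7, Cxcr5 with 2.19, Eomes with 2.26 and Bach2 with 1.03. Those below 0 were Cd40lg with -2.38, Ccr4 with -1.98, Il2ra with -1.15, Cd3g with -1.14, Trat1 with -1.53, Gata3 with -1.33 and S1pr1 with -1.39. Immediate early genes had values of 1.47 for Egr1, 1.88 for Ier3 and 1.0 for Fosl2.

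Gut homing and retinoic acid genes gave 3.11 for Ccr9, 1.96 for Itga4, -0.66 for Itgb7, 3.84 for Hic1, 2.73 for Dhrs3 and -0.65 for Rara. Cell cycle genes gave -1.81 for Aurka, -1.56 for Ccna2, -1.36 for Cdk1, -1.29 for Top2a and -1.95 for Nek2. Glycolytic genes gave -0.50 for Aldoa and -0.59 for Pkm.

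Mast cell, myeloid and cytotoxic genes gave 4.53 for Mcpt1, 3.03 for Cpa3, 2.97 for Fcer1a, 4.33 for Tgm2, 3.68 for S100a9, 3.56 for S100a8, 3.24 for Gzma, 2.68 for Lyz2, 2.32 for Fpr2, 1.73 for Slpi and 0.75 for Nkg7. Antigen presentation and macrophage genes gave 2.01 for H2-Eb1, 1.86 for Cd74, 2.15 for C1qa, 1.63 for Slc40a1, 1.60 for Itgax, 2.27 for Fcna, 1.61 for Spib and 1.83 for Pparg.

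Sex-linked genes gave 6.24 for Eif2s3y, 4.08 for Kdm5d, 2.49 for Uty, 2.84 for Orly, 2.40 for Ssty1, 3.6 for Ssty2, 2.77 for Astx6 and -10.59 for Xist. Cd40lg and Rnf128, given with the T cell genes, are X-linked too.

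Interferon-induced genes gave -2.10 for Gbp2, -0.95 for Gbp3, -1.38 for Gbp7, -1.55 for Oas3, -2.17 for Ifitm1 and -1.93 for Ifit1bl1. Other genes called in CD11c+ cells gave 2.04 for Col14a1, 1.14 for Cd209a, -2.20 for Ly6i, -2.01 for Spon1, -1.80 for Stfa2l1, -2.06 for Stfa3 and -1.5 for Hopx.

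The remaining genes were Clu with 2.07, S100a6 with -2.10, Slc16a5 with -2.03, Pdlim4 with -2.03, 1500009L16Rik with -2.44, Lhfp with 2.44, Tmem273 with 2.17, Hey1 with 1.87, Myl4 with -1.82, Capg with -1.67, St6galnac3 with 1.16, Acsl3 with -0.66 and Arhgap5 with -0.48.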

How the results depend on the processing

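Sex-linked levels limit both sides, the CD11c+ side most: with Eif2s3y as a covariate 80 of 85 named differences between cell types kept their direction and 3 stayed called, and with both Eif2s3y and Xist, an alternative chosen after seeing the data, 79 kept their direction and 1 stayed called. The counts with both were 7 for the difference between cell types, 419 for CD4+ T cells and 3 for CD11c+ cells, and with Eif2s3y alone 14 for the difference and 7 for CD11c+ cells. The CD11c+ count was 163 in a fit of the 12 arrays compared, 201 among genes with a mean above the array median in both cell types and 724 with array weights. Among genes at least as high in CD4+ as in CD11c+ arrays, also chosen after seeing the data, the counts were 483 for the difference, 737 for CD4+ T cells and 92 for CD11c+ cells, and among the other genes 743, 1001 and 283. Other alternatives moved no count by over 1.5 times, apart from leaving out arrays. Leaving out each array gave 954 to 1378 genes for the difference, 1175 to 1806 for CD4+ T cells and 122 to 493 for CD11c+ cells.

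Same-numbered arrays did not deviate together, with correlations of 0.06, -0.09 and -0.01 in CD4+ T cells and 0.03, 0.02 and 0.03 in CD11c+ cells, and a replicate block gave 1166, 1703 and 361 genes. Of the 86 named differences, 72 stayed called under every alternative without sex-linked covariates that tested them, and 14 lost the call under at least 1, most often in the fit of the 12 arrays. These were Acsl3, Arhgap5, Cd209a, Clu, Col14a1, Fcer1a, Fosl2, Fpr2, Gbp3, H2-Eb1, Itgax, Nkg7, St6galnac3 and Stfa2l1.

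Some values changed sign, and the cause was not tested. With the Eif2s3y covariate the difference between cell types was -0.66 for Ctla4, 0.09 for Foxp3, -1.97 for Aldh1a2, -1.20 for Kdm5d, -2.52 for Uty, -0.98 for Ssty1, -0.50 for Ssty2, -1.33 for Clu, -0.93 for Cd80 and -1.42 for Ccl22, and the CD11c+ difference was 0.36 for B230217O12Rik and 0.19 for Cd8b1. With both covariates it was -0.20 for Ctla4, 0.25 for Foxp3, -1.25 for Aldh1a2, -1.28 for Kdm5d, -2.73 for Uty, -0.39 for Ssty1, -0.08 for Cd209a, -0.69 for Clu, -1.13 for Cd80 and -1.27 for Ccl22, and the CD11c+ difference was 0.39 for B230217O12Rik and 0.23 for Cd8b1. With the mean of all probe sets Cd80 was at -0.15. Leaving out each array gave -1.29 to 0.62 for Saa3, -0.80 to 0.13 for Foxp3 and -0.12 to 0.21 for Cd80, and the values above 0 for Saa3 came without CD4+ tolerised replicate 2 or 3, CD11c+ tolerised replicate 3 or CD11c+ primed replicate 2.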

Other observations

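Some inflammatory and immediate early genes were higher in tolerised CD4+ T cells. Of 11 acute phase and inflammatory myeloid genes 7 were higher in tolerised CD4+ T cells and 3 in tolerised CD11c+ cells, and 3 differed between cell types above 0. Fpr2, a receptor for formyl peptides on phagocytes, read 7.67, 6.50 and 4.38 in tolerised and 3.06, 3.38 and 3.71 in primed CD4+ T cells, and Slpi, a protease inhibitor, averaged 5.20 ± 0.62 in tolerised and 3.93 ± 0.25 in primed CD4+ T cells. Of 11 immediate early genes 5 were higher and 1 lower in tolerised CD4+ T cells, 0 passed in CD11c+ cells, and 3 differed between cell types above 0 and 1 below. Egr1, a zinc finger factor induced within minutes of stimulation, averaged 10.57 ± 0.18 in tolerised and 9.22 ± 0.09 in primed CD4+ T cells, against 8.37 ± 0.29 and 8.49 ± 0.05 in tolerised and primed CD11c+ cells. Ier3 rose 3.46-fold and Fosl2 2.51-fold in tolerised CD4+ T cells.

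Regulatory and naive T cell lists moved in both directions. Of 11 regulatory T cell genes 5 were higher and 2 lower in tolerised CD4+ T cells, 0 passed in CD11c+ cells, and 2 differed between cell types above 0 and 1 below. Of 8 naive T cell genes 1 was higher and 2 lower in tolerised CD4+ T cells, 1 was higher and 1 lower in tolerised CD11c+ cells, and 1 differed above 0 and 2 below. Of 13 cholesterol synthesis genes 1 was higher and 3 lower in tolerised CD4+ T cells, 0 passed in CD11c+ cells, and 2 differed below 0. Of 9 erythroid genes 1 was higher in tolerised CD4+ T cells and 1 differed above 0. Of the 13 T cell identity genes 1 was lower in tolerised CD4+ T cells and 2 differed between cell types below 0. Of 6 salivary and pancreatic genes 1 was lower in tolerised CD11c+ cells and 0 differed between cell types by limma's test. Amy1 itself had a difference between cell types of -1.57 (adjusted p = 0.77). The lists of B cell, stromal and adipocyte genes had 3 tested members each, with 2, 0 and 1 differing between cell types.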
